A study of Mus musculus with 3 samples.

Results

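The genes described here make, reduce, bind, degrade or respond to retinoic acid: Aldh1a2, Rdh10, Dhrs3, Cyp26a1, Cyp26c1, Crabp1, Crabp2, Rarb, Nr2f1 and Nr2f2. They were chosen by symbol for their role in the pathway, with earlier results of these data known, and are 10 of the 51923 genes in the single-cell count matrix, of which 35403 had at least 1 UMI (unique molecular identifier, 1 counted transcript). All 10 were detected, in 2.24% (Cyp26c1) to 72.9% (Nr2f2) of the 14777 cells. The cells came from C57BL/6 mouse embryos that carried Mesp1-Cre, which makes Cre recombinase in early mesoderm, and the Ai9 reporter, which turns recombined cells red. The embryos carried the Wls fl allele on 1 chromosome (Wls fl/+, the controls) or on both (Wls fl/fl, the mutants). Wls is the membrane protein that carries Wnt ligands out of the cell, so in the red cells of a mutant both copies were targeted, while in the controls 1 copy was targeted too. Red cells were sorted, so each sample holds the Mesp1 lineage and not the whole embryo. Embryos had been tagged with lipid-anchored DNA indices (MULTI-seq) before pooling. The labels list 3 sequencing runs, and each index of a run is called a barcode sample here. There were 22 barcode samples: 1 control at E7.5, 3 controls and 3 mutants at E8.0, 2 controls and 1 mutant at E8.5, and 6 controls and 6 mutants at E9.5. Stage and genotype came from the authors' per-cell table, which lists the genotypes as wild type and knockout. Whether an index marked 1 embryo or several was not given, so p-values measure the spread between barcode samples.

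Retinoic acid is a small lipid made from vitamin A that enters nuclei and switches genes through retinoic acid receptors. Rdh10 oxidises retinol to retinaldehyde, Aldh1a2 oxidises retinaldehyde to retinoic acid, and Dhrs3 returns retinaldehyde to retinol. Cyp26a1 and Cyp26c1 hydroxylate retinoic acid for removal, so tissue that expresses them is shielded from it. Crabp1 and Crabp2 bind retinoic acid in the cytoplasm. Rarb encodes a receptor, and its own gene is a classical retinoic acid target, while Nr2f1 and Nr2f2 encode orphan nuclear receptors of the COUP-TF family that respond to retinoic acid in many embryonic cells. In the early embryo retinoic acid from trunk mesoderm limits the second heart field at its posterior edge and promotes atrial fate, and Nr2f2 is known for its role in atrial identity.

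The receptor binding site best known in this pathway, a direct repeat of a 6-base core with a spacer of 5 bases, was looked for on both strands of the 300 bases around each annotated start (250 before and 50 after, RefSeq, GRCm38.p6; a gene can have several). Promoters of 8 of the 10 genes were matched, 11 promoters in all; Rdh10 and Crabp2 had no entry. The repeat was found in the promoters of Rarb and Cyp26a1, the target receptor and the main degrading enzyme, and in 32 of all 32851 promoters (0.0974%). They are shown because they are the members whose promoter carries this motif, with the 17-base match in capitals, 5′ to 3′ along the strand of the gene. The Rarb promoter is chr14:16575427-16575726 on the minus strand with the match at chr14:16575513-16575529, 53 to 37 bases before its start; this start lies inside the gene's full span given below, not at its outer end. The Cyp26a1 promoter is chr19:37697558-37697857 on the plus strand with the match at chr19:37697776-37697792, 32 to 16 bases before the start, and there the repeat reads on the opposite strand.
Rarb: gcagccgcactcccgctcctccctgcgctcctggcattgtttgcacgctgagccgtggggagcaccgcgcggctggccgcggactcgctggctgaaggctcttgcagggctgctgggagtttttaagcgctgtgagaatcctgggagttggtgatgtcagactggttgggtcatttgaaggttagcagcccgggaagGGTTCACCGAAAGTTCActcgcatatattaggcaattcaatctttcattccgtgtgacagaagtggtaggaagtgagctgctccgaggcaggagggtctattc
Cyp26a1: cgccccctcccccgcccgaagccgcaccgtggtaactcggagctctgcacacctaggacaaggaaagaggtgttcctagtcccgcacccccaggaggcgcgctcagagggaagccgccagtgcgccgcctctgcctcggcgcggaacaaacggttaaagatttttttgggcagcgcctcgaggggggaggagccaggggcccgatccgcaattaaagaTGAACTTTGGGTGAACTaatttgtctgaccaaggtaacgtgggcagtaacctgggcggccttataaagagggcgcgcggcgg
The same cores with a spacer of 1 or 2 bases were in none of the 11 promoters, and in 0.222% and 0.268% of all promoters. A match is a description of the letters and not a measured binding site.

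In the GENCODE M21 annotation of GRCm38, the build the submitters name, all 10 genes are protein coding. Cyp26c1 (chromosome 19, 37685581 to 37693398) and Cyp26a1 (37697798 to 37701536) are neighbours on the same strand, 4399 bases apart. Aldh1a2 lies on chromosome 9 (71215789 to 71296243), Rdh10 on chromosome 1 (16105774 to 16133734), Dhrs3 on chromosome 4 (144892827 to 144928209) and Crabp1 on chromosome 9 (54764748 to 54773110). Crabp2 lies on chromosome 3 (87948666 to 87953376), Rarb on chromosome 14 (16430839 to 16819156), Nr2f1 on chromosome 13 (78188973 to 78199757) and Nr2f2 on chromosome 7 (70351944 to 70366735). Several members overlap a gene on the opposite strand: Nr2f1 the antisense gene A830082K12Rik, Nr2f2 the transcript B130024G19Rik, Rarb the genes Top2b and Gm48162, and Aldh1a2 the pseudogene Gm48124. These partners have rows of their own in the count matrix. The labels do not say whether counting used the strand. Whether reads from sequence that a member shares with its partner were counted to the right gene is therefore not known.

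The libraries held 331587989 UMIs, with a median of 21739 per cell (895 to 102853), and the samples held from 6 cells (E9.5 control Bar6) to 2508 cells (E8.5 control Bar3). Runs 1 and 2 had medians of 23112 and 23555 UMIs per cell and run 3 had 11866; all E8.0 samples were in run 1, all E8.5 samples in run 2, and the E9.5 samples in all 3 runs. By their titles, runs 2 and 3 share a date and run 1 has a later one. In all, 46 cells had a 10x barcode that also occurred in another run. The targeted gene Wls was lower in mutants at every stage with both genotypes: 11.8 ± 3.93 against 58.2 ± 6.25 CPM at E8.0 (SD, n = 3 and 3), 3.72 against 39.1 and 59.6 CPM at E8.5, and 10.4 ± 1.43 against 42.0 ± 4.27 CPM at E9.5 (n = 6 and 6), with no overlap. CPM are a gene's counts scaled to the same total in every sum of cells. Where the deleted part lies relative to the counted 3′ ends was not given. Cells were assigned to lineages by fixed marker lists, in which no member occurs: a cell needed at least 3 raised markers of 1 list and more than of any other, which gave a lineage to 8485 cells and none to 6292. Most markers were highest in their own lineage; among those that were not, Wnt2 (splanchnic list) was higher in cardiomyocytes, Lhx9 (posterior lateral plate list) in proepicardium and Cdx2 (endoderm list) in posterior lateral plate. Cells positive for neural markers (251) and for endoderm and epithelium markers (83) were present in the sort. Levels are compared below between samples and lineages for 1 gene at a time.

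Aldh1a2, the enzyme that makes retinoic acid, was concentrated in paraxial and splanchnic mesoderm. Over samples with at least 20 such cells, its mean level was 383 ± 288 CPM in paraxial mesoderm (SD, n = 15) and 179.9 ± 32.4 CPM in splanchnic mesoderm (n = 8). Both exceeded the other cells of the same samples, by 2.85 ± 0.15 on the log2 scale in paraxial (SE, adjusted p = 8.11e-15, edgeR) and 1.27 ± 0.13 in splanchnic cells (adjusted p = 1.95e-07). The paraxial cells are 10.4% of all cells and held 42.7% of all Aldh1a2 UMIs. In every other lineage with a call it was lower than in the remaining cells: cardiomyocytes had 6.34 ± 3.07 CPM (n = 18), endothelium 9.40 ± 9.54 (n = 12) and blood 2.31 ± 1.99 (n = 16), and the log2 difference of blood was -4.37 ± 0.20. Proepicardium, with 46.2 ± 27.1 CPM (n = 8), did not pass the test (-0.38 ± 0.16, adjusted p = 0.0846). From the top, the order of the means over all stages was paraxial, splanchnic, proepicardium, pharyngeal and anterior second heart field (23.8 ± 18.8), cranial mesoderm (20.9 ± 14.4), neural (20.6 ± 9.88, n = 3), posterior lateral plate and allantois (15.5 ± 9.62), endothelium, cardiomyocyte and blood. Each neighbouring pair of this order overlapped in its sample ranges except splanchnic (134.8 to 235.9 CPM) and proepicardium (23.3 to 100.3 CPM). The lineages differ in their mix of stages, and the order changed within a stage: in sums of control cells splanchnic was above paraxial at E8.5 (167.1 and 157.8 CPM), and posterior lateral plate was above pharyngeal and cranial cells at E9.5 (21.2, 19.3 and 15.6 CPM). With every cell thinned to 5000 UMIs, 44.6% of paraxial and 43.0% of splanchnic cells had an Aldh1a2 UMI, against 1.01% of blood cells, where the gene is not known to act.

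**Figure D1:**
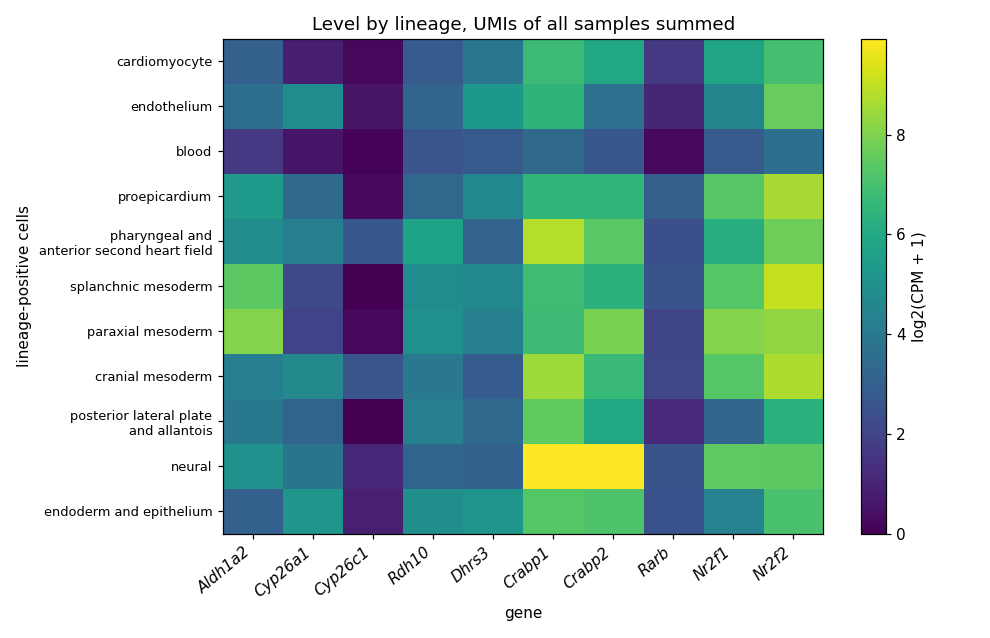
Level of each gene (columns) in cells of each lineage (rows), with the UMIs of all samples summed; colour gives log2(CPM + 1), to be compared down a column. Aldh1a2 is brightest in paraxial and splanchnic rows, Cyp26c1 in pharyngeal and cranial rows, and both Crabp genes in the neural row, while the blood row is dark for most genes.

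Over the lineages, the counts of called members were read against the share of all genes called. Blood cells were lower than the other cells for all 10 members, where 78.1% of all genes were called. In cardiomyocytes 8 of 9 tested members were lower and none higher (66.9% of genes called), and in endothelium 2 were higher and 7 lower (42.8%). Paraxial mesoderm had 5 members higher and 3 lower (34.2% of genes called), cranial mesoderm 5 and 4 (22.4%), the pharyngeal group 4 and 4 (30.8%) and splanchnic mesoderm 3 and 4 (18.8%). Proepicardium had 2 higher and 4 lower (25.9%), neural cells 3 higher and 4 lower (16.6%), and the posterior lateral plate and allantois 0 higher and 6 lower (19.8%). In all, 78 of 97 tested pairs of a member and a lineage were called, 24 higher and 54 lower.

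Rdh10, which makes the retinaldehyde that Aldh1a2 uses, had its highest mean over all stages in pharyngeal cells and was raised in paraxial cells as well. In the sums of E8.0 control cells the order was another, with 53.6 CPM in paraxial, 45.2 in splanchnic and 42.3 in pharyngeal cells. Its level over all stages was 52.1 ± 14.6 CPM in pharyngeal and anterior second heart field cells (n = 14), 1.23 ± 0.12 above the other cells on the log2 scale (adjusted p = 4.86e-09). Paraxial cells followed with 35.7 ± 11.8 CPM (n = 15) and a log2 difference of 0.60 ± 0.09 (adjusted p = 9.4e-06). Splanchnic cells, at 28.5 ± 14.7 CPM, did not pass (0.10 ± 0.18, adjusted p = 0.771). The ranges of all 3 overlapped, and the other 7 lineages were lower than the cells around them, from -0.51 ± 0.16 in posterior lateral plate to -1.90 ± 0.16 in cardiomyocytes. Dhrs3, which works in the opposite direction to Rdh10, had its highest mean in endothelium, 43.3 ± 38.04 CPM (n = 12, 8.49 to 149.1). It was 1.07 ± 0.18 above the other cells (edgeR, adjusted p = 3.51e-05). This mean pools the genotypes. In sums of control cells the endothelial level was 32.1, 27.7 and 27.9 CPM at E8.0, E8.5 and E9.5. At E8.0 Dhrs3 was near that level in control splanchnic (30.2 CPM) and paraxial cells (28.55 CPM). It was lower in pharyngeal cells (8.70 ± 7.11 CPM, -1.24 ± 0.15), in cranial cells (7.63 ± 6.18 CPM, -1.36 ± 0.17) and in neural cells (4.21 ± 2.44 CPM, -2.16 ± 0.40), and less so in blood (-0.83) and in cardiomyocytes (-0.28, a call lost with E8.0 or E9.5 samples alone, adjusted p = 0.0749 and 0.175).

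Cyp26a1, the first of the degrading enzymes, was above the other cells in cranial mesoderm (23.1 ± 12.3 CPM, n = 11, log2 difference 1.17 ± 0.15, adjusted p = 1.81e-06), in endothelium (22.6 ± 21.0 CPM, n = 12, 1.1 ± 0.28, adjusted p = 0.00237) and in pharyngeal cells (19.4 ± 12.2 CPM, n = 14, 0.86 ± 0.19, adjusted p = 0.000806). It was below them in paraxial (2.93 ± 2.17 CPM, -1.72 ± 0.18) and splanchnic mesoderm (3.30 ± 3.95 CPM, -1.94 ± 0.39), the lineages with the most Aldh1a2, and further below them in cardiomyocytes (-3.68) and blood (-3.73), which have the least. With E9.5 samples alone the endothelial difference was -0.13 (adjusted p = 0.842). The pharyngeal call was lost under the stricter marker rule (0.53, adjusted p = 0.0877) and with E8.0 samples alone (0.37, adjusted p = 0.2), and the splanchnic call with E8.0 samples alone (-0.83, adjusted p = 0.238). Cyp26c1 was the sparsest member, with 423 UMIs in all, and 26.7% of them were in pharyngeal and 21.0% in cranial cells, which are 6.39% and 5.13% of all cells. Its log2 difference from the other cells was 2.40 ± 0.24 in pharyngeal (5.91 ± 3.67 CPM, adjusted p = 8.22e-09) and 1.95 ± 0.24 in cranial cells (5.17 ± 2.14 CPM, adjusted p = 9.96e-07). No Cyp26c1 UMI was seen in the 439 splanchnic cells or in the 362 posterior lateral plate and allantois cells, where the upper exact Poisson 95% bounds, covering counting error only, were 0.375 and 0.390 CPM.

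Within samples, cells with an Aldh1a2 UMI had a Cyp26a1 UMI less often than cells without one. After thinning to 5000 UMIs the shares were 2.57% ± 1.71 and 4.18% ± 1.60 (SD, n = 17 samples with at least 20 cells on both sides), a difference of -1.61 percentage points, lower in 13 of 17 samples (sign-flip permutation test, two-sided, adjusted p = 0.0051 over 9 genes). The result depends on the thinning: with all UMIs kept the shares were 11.4% and 11.3% and the difference was +0.153 (permutation test, adjusted p = 0.869). Thinning left out 365 control and 82 mutant cells. Without blood-positive cells the difference was -2.48 points, lower in 15 of 17 samples (permutation test, adjusted p = 0.00039). Cyp26c1 was also less frequent in Aldh1a2-positive cells, 0.200% against 0.691% (lower in 13 of 17 samples, permutation test, adjusted p = 0.046). Nr2f1 and Nr2f2 were more frequent in them in 17 of 17 samples, at 47.0% against 22.5% and 72.2% against 45.2% (permutation test, adjusted p = 9e-05 for both). Rdh10 (17.0% against 7.60%), Crabp2 (38.1% against 27.1%) and Rarb (2.77% against 1.502%) were higher as well, in 15, 16 and 14 of 17 samples, with adjusted p from the permutation test of 0.000878, 0.00018 and 0.00178. Crabp1 passed with all cells (adjusted p = 0.0486, permutation test) and not without blood cells (adjusted p = 0.537). With all cells it was higher in 10 samples, among them every E8.0 sample, and lower in 7, all of E8.5 or E9.5. E8.0 control Bar24 had 81.5% against 36.75%, and E9.5 control Bar22 26.5% against 37.6%. Rdh10 stood further apart at E8.0 (18.5% against 5.30% in Bar24) than in E9.5 controls (8.82% against 9.98% in Bar22). Its E9.5 mutants ran from 23.8% against 2.985% (Bar8) to 0% against 5.83% (Bar10). A change with stage was not tested. Dhrs3, at 10.0% against 7.77%, did not pass at this depth (adjusted p = 0.0624, permutation test) passed after thinning to 10000 UMIs (permutation test, adjusted p = 0.00179), and did not without blood cells (adjusted p = 0.349).

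Over the samples with at least 20 cells of a lineage, both binding proteins had their highest means in the neural-positive cells of the sort, but these values come from 3 samples, all of E9.5 and run 1. In the sums of E8.0 control cells, neural Crabp1 was at 406.9 CPM, below cranial (460.9) and paraxial cells (430.1). In the 3 E9.5 samples Crabp1 reached 1145 ± 202 CPM, 2.36 ± 0.07 above the other cells (adjusted p = 1.52e-21), and Crabp2 reached 1093 ± 43.7 CPM, 2.75 ± 0.07 above them (adjusted p = 9.14e-23). Both were called lower than in the other cells in proepicardium, posterior lateral plate and allantois, and cardiomyocytes. Crabp1 was higher in pharyngeal (447.6 ± 93.4 CPM, n = 14, log2 difference 0.89 ± 0.08, adjusted p = 5.64e-10) and cranial cells (406.9 ± 172 CPM, n = 11, 0.58 ± 0.11, adjusted p = 0.000454), and lower in paraxial cells over all stages (167.9 ± 166 CPM, n = 15, -1.06 ± 0.28, adjusted p = 0.00339). Crabp2 was higher in paraxial cells (210.8 ± 97.9 CPM, 0.74 ± 0.06, adjusted p = 1.48e-10) and lower in cranial cells (87.7 ± 44.7 CPM, -0.67 ± 0.08, adjusted p = 1.89e-07). The paraxial value of Crabp1 turned with the stage: with E8.0 samples alone it was higher than in the other cells, by 0.63 on the log2 scale (adjusted p = 1.16e-05), and the difference in splanchnic cells went from -1.29 to 0.10 (adjusted p = 0.734).

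Among the receptors, Rarb was sparse, with 1146 UMIs in all. Its log2 difference from the other cells was above 0 in 4 of 10 lineages and was called higher in 1, proepicardium (7.20 ± 2.69 CPM, n = 8, 0.70 ± 0.21, adjusted p = 0.012), a call lost under the stricter marker rule (0.77, adjusted p = 0.12). Rarb was called lower in blood, and in endothelium with a call that was lost in 2 of 3 alternatives. These were the stricter marker rule (-1.19, edgeR adjusted p = 0.052) and E8.0 samples alone (-1.47, edgeR adjusted p = 0.126) for Rarb. Its means in pharyngeal, splanchnic, paraxial and cranial cells lay between 3.08 and 4.91 CPM with overlapping ranges. Nr2f1 was highest against the other cells in paraxial mesoderm (216.6 ± 116 CPM, n = 15, 1.1 ± 0.08, edgeR adjusted p = 1.89e-11) and lowest in posterior lateral plate and allantois (8.16 ± 3.42 CPM, n = 7, -3.52 ± 0.22). In sums of control cells blood was lower than posterior lateral plate at E8.5 (3.23 and 12.85 CPM) and E9.5 (9.13 and 10.6 CPM), but not at E8.0 (7.13 and 5.155 CPM). Over the alternative settings the log2 difference was -2.97 to -2.94 in posterior lateral plate and -3.65 to -2.69 in blood. Nr2f2 was highest in splanchnic mesoderm (545.6 ± 119 CPM, n = 8, 1.15 ± 0.07, edgeR adjusted p = 1.36e-11). Cranial mesoderm (407.0 ± 60.0 CPM, 0.74 ± 0.07) and proepicardium (396.1 ± 108 CPM) followed. The ranges of these last lineages overlapped, and their order was the opposite in sums of control cells at E9.5 (464.1 and 505.2 CPM). In sums of E8.0 control cells Nr2f2 was level in splanchnic and cranial mesoderm (340.1 and 341.4 CPM). It was lower in cardiomyocytes (111.9 ± 59.5 CPM, n = 18, -1.02 ± 0.13, adjusted p = 7.11e-08).

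From E8.0 to E9.5 the levels in all sorted cells of Aldh1a2, Cyp26a1 and Rdh10 fell, and those of Crabp2, Rarb and Nr2f1 rose. Of the 10 members, 3 were higher and 3 lower at E9.5, in a comparison in which 19.5% of all genes were called; the median log2 fold change was 0.08 over the members and 0.00 over all genes tested. In sums over all cells, fewer cells of a type and less of a transcript per cell cannot be told apart. All E8.0 samples came from run 1, so values with run as a term are given beside the calls that changed.

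Aldh1a2 measured 96.4, 118.7 and 136.1 CPM in the E8.0 controls and 85.4, 91.0 and 118.9 CPM in the E8.0 mutants. At E9.5 the controls ran from 0 through a median of 40.7 to 57.7 CPM, and the mutants from 15.1 through 32.2 to 49.8 CPM. Every E9.5 sample was below every E8.0 sample, and the value of 0 belongs to the 6-cell sample Bar6. Aldh1a2 fell by 1.39 on the log2 scale (SE 0.20, adjusted p = 5.75e-05), and the call held in 18 of 18 fits that each left out 1 sample. Cyp26a1 fell by 0.73 (SE 0.25, adjusted p = 0.0394) and Rdh10 fell by 0.39 (SE 0.13, adjusted p = 0.0318). With run as a term both lost the call (-0.56, adjusted p = 0.168, and -0.26, adjusted p = 0.156). Leaving out 1 sample kept it in 8 of 18 fits for Cyp26a1 (adjusted p up to 0.096, without E8.0 control Bar24) and in 14 of 18 for Rdh10 (up to 0.106, without E8.0 mutant Bar28).

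Crabp2 measured 26.3, 60.2 and 60.6 CPM in the E8.0 controls and 48.5, 54.7 and 72.5 CPM in the E8.0 mutants. At E9.5 the controls ran from 84.2 through a median of 148.6 to 542.9 CPM, and the mutants from 84.3 through 136.4 to 178.9 CPM. The stages did not overlap, and the highest value was again that of the 6-cell sample. Crabp2 rose by 1.60 ± 0.26 (adjusted p = 0.000183). Nr2f1 rose by 1.57 ± 0.27 (adjusted p = 0.000282), from 19.6 to 62.0 CPM over the E8.0 samples to 35.6 to 196.2 CPM at E9.5, and here the stages overlapped. Rarb rose by 0.99 ± 0.19 (adjusted p = 0.000863); its calls, like those of Crabp2 and Nr2f1, held in 18 of 18 leave-one-out fits, but limma on the mean CPM per cell gave 0.94 with an adjusted p of 0.0776. Nr2f2 did not pass (0.54 ± 0.20, adjusted p = 0.0606) and passed with run as a term (0.86, adjusted p = 0.00309). Crabp1 (0.00 ± 0.13), Dhrs3 (0.16 ± 0.20) and Cyp26c1 (-0.14 ± 0.26) did not pass. The Dhrs3 value pools genotypes whose means moved in opposite directions, from 15.8 to 10.52 CPM in controls and from 17.8 to 25.9 CPM in mutants. The single E7.5 control sample, 28 cells, had 1 UMI each of Aldh1a2, Cyp26a1 and Rarb and 75 UMIs of Crabp2 (151.1 CPM).

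**Figure D2:**
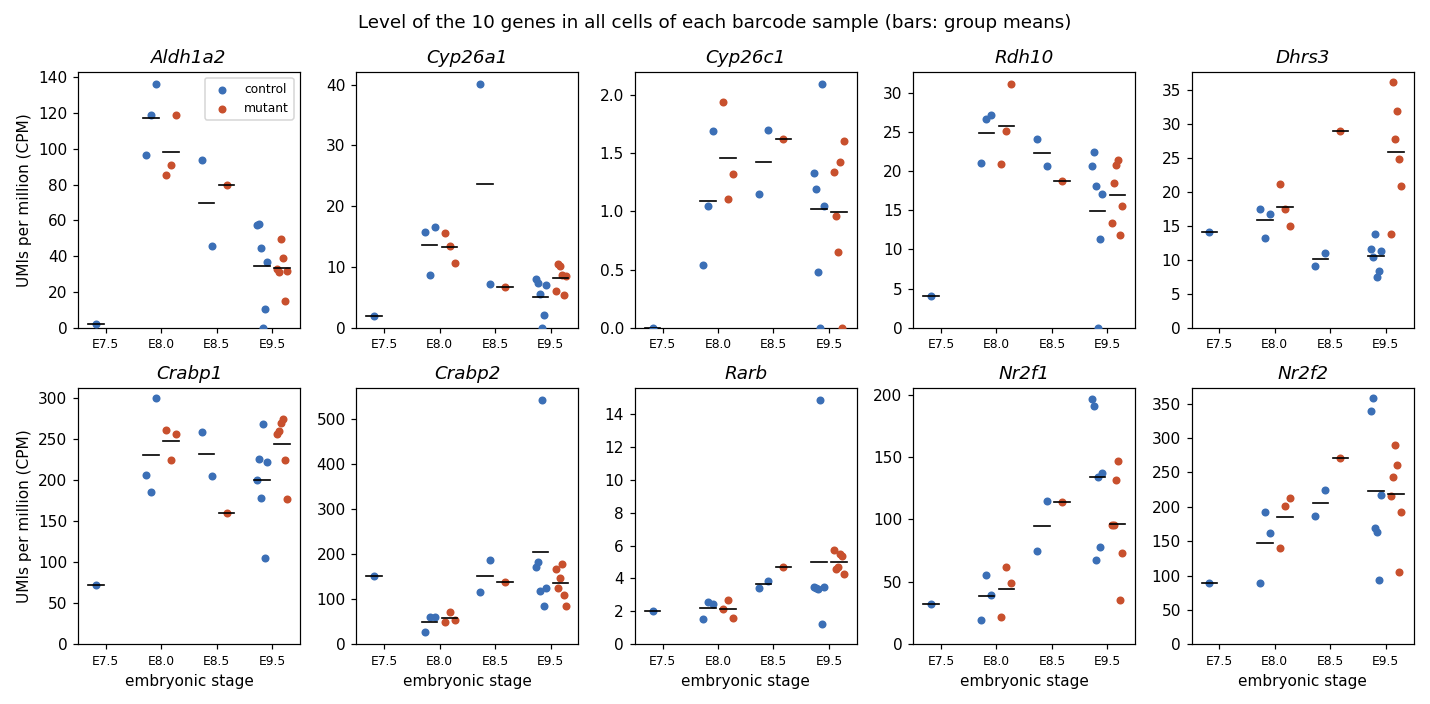
CPM of each gene in all cells of each barcode sample (points) by embryonic stage, with controls and mutants side by side and bars for group means. Aldh1a2 falls and Crabp2 and Nr2f1 rise from E8.0 to E9.5, and Dhrs3 stands higher in the E8.5 mutant and in 5 of 6 E9.5 mutants than in every control of that stage.

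Within lineages Aldh1a2 was below 0 in 7 of 7 and called lower in 2, paraxial and pharyngeal cells, and Crabp1, level in the sum of all cells, fell in 4 lineages. Over 7 lineages with enough samples, 25 of 53 tested pairs of a member and a lineage were called, 16 higher and 9 lower at E9.5. Paraxial mesoderm had 2 members higher and 3 lower (8.89% of all genes called), the pharyngeal group 3 and 1 (8.31%), splanchnic mesoderm 3 and 1 (2.23%) and cranial mesoderm 2 and 1 (3.61%). Cardiomyocytes had 3 higher and 1 lower (22.8% of genes called), endothelium 2 and 2 (8.81%) and blood 1 and 0 (30.0%).

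Aldh1a2 in paraxial cells had a mean of 743.2 ± 185 CPM at E8.0 (n = 5, 550.8 to 1015) and 194.8 ± 68.5 CPM at E9.5 (n = 8, 116.0 to 349.8), without overlap. It fell by 1.98 on the log2 scale (SE 0.21, adjusted p = 2.45e-06). In pharyngeal cells it fell by 1.43 (SE 0.27, adjusted p = 0.00303), from 38.8 ± 24.0 CPM (n = 5) to 14.8 ± 6.51 CPM (n = 7), a call lost under the stricter rule of at least 4 markers (-0.89, adjusted p = 0.107). In splanchnic cells, the other Aldh1a2-rich lineage, the means were 195.8 ± 53.7 and 169.9 ± 12.98 CPM (n = 3 and 3) and the fold change did not pass (-0.19 ± 0.20, adjusted p = 0.726). Whether the paraxial and splanchnic changes differ was not tested.

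Crabp1 in paraxial cells fell by 2.59 (SE 0.19, adjusted p = 1.87e-08), from 376.0 ± 123 CPM at E8.0 (n = 5, 211.7 to 503.4) to 63.7 ± 15.8 CPM at E9.5 (n = 8, 38.4 to 88.5). The stages did not overlap. It also fell by 2.86 in splanchnic cells (SE 0.26, adjusted p = 0.000134), by 1.63 in endothelium (SE 0.32, adjusted p = 0.00525) and by 1.38 in cardiomyocytes (SE 0.24, adjusted p = 0.000176). In pharyngeal cells, one of its high lineages, it did not pass (0.30 ± 0.14, adjusted p = 0.212), nor in cranial cells (-0.63 ± 0.18, adjusted p = 0.0634). Crabp2 moved the other way: it was above 0 in 7 of 7 lineages and called higher in 5, from 0.87 ± 0.22 in cardiomyocytes to 1.62 ± 0.22 in cranial mesoderm. Its splanchnic call was lost in DESeq2 (adjusted p = 0.133) and without E8.0 samples Bar26, Bar27 or Bar29 or E9.5 control Bar23 (adjusted p from 0.065 to 0.256).

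Nr2f1 was above 0 in 7 of 7 lineages too and called higher in 6. The values were 2.26 ± 0.45 in pharyngeal cells (19.8 ± 22.9 to 98.0 ± 56.3 CPM, adjusted p = 0.00364), 1.98 ± 0.32 in cranial (adjusted p = 0.00172), 1.88 ± 0.24 in paraxial (adjusted p = 2.91e-05) and 1.45 ± 0.26 in splanchnic cells (adjusted p = 0.0113), with 1.17 ± 0.33 in endothelium and 0.89 ± 0.27 in cardiomyocytes. The endothelial call of Nr2f1 held in 4 of 10 leave-one-out fits and was lost under the stricter marker rule (0.83, adjusted p = 0.366). Without E8.0 control Bar29 its splanchnic and cardiomyocyte calls were lost (adjusted p = 0.0559 and 0.0537). Nr2f2 was called higher in 5 of 7 lineages, among them endothelium (1.17 ± 0.18, adjusted p = 0.00116) and the pharyngeal group (0.99 ± 0.20, adjusted p = 0.00389). In paraxial cells, where Nr2f1 rose, Nr2f2 measured 313.1 ± 15.2 and 318.6 ± 69.6 CPM and did not pass (0.02 ± 0.12, adjusted p = 0.949). Its calls in cardiomyocytes, blood and splanchnic mesoderm held in 8 of 16, 6 of 14 and 2 of 6 leave-one-out fits, and the cardiomyocyte call was lost in DESeq2 (0.79, adjusted p = 0.121). Cyp26a1 fell by 2.26 in endothelium (SE 0.50, adjusted p = 0.0105; 40.8 ± 20.6 to 7.80 ± 6.93 CPM, n = 5 and 5) and by 1.47 in cranial mesoderm (SE 0.29, adjusted p = 0.00791; 34.7 ± 9.91 to 16.5 ± 8.65 CPM, n = 4 and 6). The cranial call was lost without E8.0 control Bar29 (-1.65, adjusted p = 0.091). In pharyngeal cells Cyp26a1 did not pass (0.34 ± 0.36, adjusted p = 0.625). Rdh10 fell by 0.64 in paraxial cells (SE 0.17, adjusted p = 0.0182), a call held in 8 of 13 leave-one-out fits and lost under the stricter marker rule (-0.47, adjusted p = 0.359). Run 1 held every E8.0 sample. With run 1 alone, where 6 of the 7 lineages could be fitted, the call lost among the pairs fitted was that of Nr2f2 in cardiomyocytes (0.935, adjusted p = 0.0668).

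**Figure D3:**
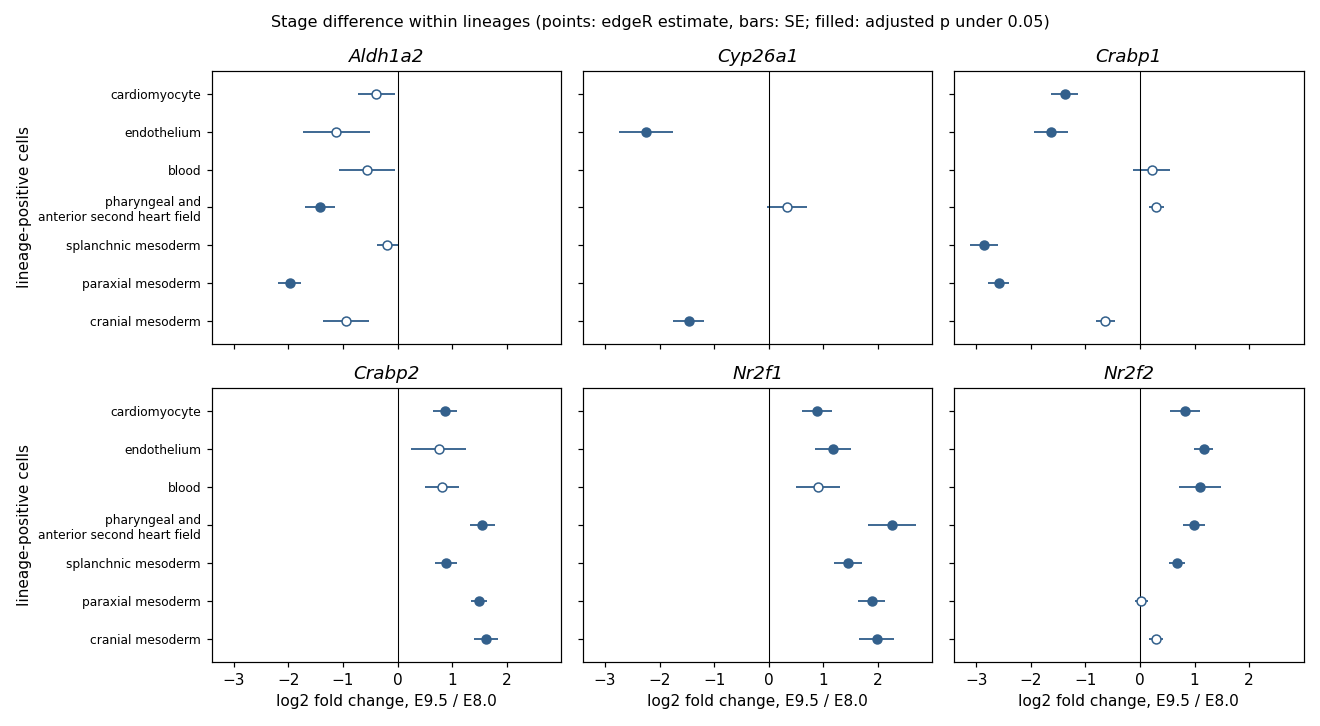
Log2 fold change of E9.5 over E8.0 (x axis) within cells of each lineage (y axis) for 6 genes; points are edgeR estimates, bars standard errors and filled points adjusted p under 0.05. Crabp1 lies left of 0 and Crabp2 and Nr2f1 lie right of 0 in paraxial and splanchnic cells, and missing points are pairs with too few counts.

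Between genotypes, Dhrs3, the enzyme that returns retinaldehyde to retinol, was higher in all sorted cells of mutants with the stages pooled and at E9.5, and Nr2f1 was lower at E9.5. Over all stages 1 of 10 members was called, where 10.2% of all genes were called. At E9.5 it was 2 of 10, 1 higher and 1 lower (10.3% of genes), so the share of members called was not far from that of all genes. At E8.0 it was 0 of 10, and 0.0244% of genes were called there (4 of 16416, with 1615 at an unadjusted p under 0.05). In the test of whether the genotype difference itself changed from E8.0 to E9.5 it was also 0 of 10 (0.464% of genes called, 2060 genes at an unadjusted p under 0.05).

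Dhrs3 at E9.5 measured from 7.44 through a median of 10.9 to 13.9 CPM in the 6 controls and from 13.8 through 26.3 to 36.2 CPM in the 6 mutants. Of the mutants, 5 lay above all controls and Bar10, of run 3, lay just under the highest control. The log2 fold change was 1.21 ± 0.18 (95% interval 0.86 to 1.57, adjusted p = 0.00112) and the ratio of the means 2.46. The ratio was 2.89, 2.33 and 1.75 in runs 1, 2 and 3. Run 2 held 1 mutant, Bar5 (57 cells, 24.8 CPM), and 2 controls. These were Bar4 at 13.9 CPM and the 6-cell Bar6, whose 7.44 CPM came from 1 UMI. In samples of at least 20 cells the ratio of the means at E9.5 was 2.32. The call held in 12 of 12 fits that left out 1 sample (1.04 to 1.41), but not in runs 2 and 3 alone, with 3 mutants and 4 controls (0.78, adjusted p = 0.202). The E8.5 mutant had 28.9 CPM against 9.17 and 11.03 CPM in its controls. At E8.0 the values were 13.1, 16.8 and 17.5 CPM in controls and 14.9, 17.5 and 21.1 CPM in mutants, and the groups overlapped (0.10 ± 0.17, adjusted p = 0.859). Over all stages Dhrs3 was 0.81 ± 0.17 higher (adjusted p = 0.00556), called in 22 of 22 leave-one-out fits. The difference between the stages was 1.11 ± 0.28 (adjusted p = 0.0927). It passed in 4 of 6 alternative settings, among them DESeq2 (adjusted p = 0.0176). Over these settings the estimates ran from 1.03 to 1.48, and the adjusted p reached 0.809 where it did not pass. It also passed in edgeR without E9.5 control Bar9 (adjusted p = 0.0446) and without E9.5 mutant Bar10 (adjusted p = 0.0371). At E8.0 cells with a Y-linked UMI were 90.4% to 93.9% of the mutant samples and 18.9% to 58.1% of the control samples. Genotype and sex of the embryos cannot be fully told apart there. At E9.5 the shares were 49.3% ± 40.6 in mutants and 22.8% ± 24.2 in controls of at least 20 cells (SD, n = 6 and 5). In run 1 they were 88.3%, 19.5% and 85.8% in mutants Bar19, Bar20 and Bar21, and 17.1% and 16.4% in controls Bar22 and Bar23. Sex is thus uneven between the genotypes at E9.5 too, most of all in run 1. With this share as a covariate the stage difference of Dhrs3 was 1.24 (edgeR, adjusted p = 0.0289).

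Nr2f1 at E9.5 ran from 67.2 through a median of 135.4 to 196.2 CPM in controls and from 35.6 through 95.8 to 146.9 CPM in mutants. The groups overlapped, and 1 mutant (Bar5, 57 cells) lay below all controls. The log2 fold change, with run in the model, was -0.62 ± 0.14 (edgeR, adjusted p = 0.0155). The ratios of mutant to control means were 0.644, 0.354 and 0.787 in the 3 runs. In run 2 mutant Bar5 (35.6 CPM) was set against controls Bar4 (67.2 CPM) and the 6-cell Bar6 (133.9 CPM). The call was lost without control Bar9 or Bar22 or mutant Bar19 (adjusted p = 0.0511, 0.0508 and 0.0546), in limma (adjusted p = 0.166), in run 1 alone (adjusted p = 0.0657) and in runs 2 and 3 alone (adjusted p = 0.279). At E8.0 the Nr2f1 difference was 0.12 ± 0.43.

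Rarb was 0.59 ± 0.19 higher in E9.5 mutants and did not pass (adjusted p = 0.0612). The controls ran from 1.26 through a median of 3.45 to 14.9 CPM and the mutants from 4.27 through 5.05 to 5.70 CPM. The highest control is the 6-cell sample Bar6, with 2 Rarb UMIs; the other 5 controls lay at 1.26 to 3.48 CPM, below all 6 mutants. Without Bar6 the difference passed (0.60, adjusted p = 0.0413), as it did in DESeq2 (adjusted p = 0.0214) and without mutant Bar20 (adjusted p = 0.0474). Crabp1 was 0.31 ± 0.14 higher at E9.5 (adjusted p = 0.165) and Cyp26a1 0.31 ± 0.19 (adjusted p = 0.314), and neither passed. Crabp1 passed in run 1 alone (0.38, adjusted p = 0.0386) and without control Bar9 (0.45, adjusted p = 0.0464). Aldh1a2 was -0.38 ± 0.23 (adjusted p = 0.327), Crabp2 -0.21 ± 0.25, Cyp26c1 -0.22 ± 0.29, Nr2f2 -0.18 ± 0.15 and Rdh10 -0.13 ± 0.14, none past the test. Nr2f2 passed in run 1 alone (-0.36, adjusted p = 0.0433) and without control Bar7 (-0.34, adjusted p = 0.0316), and Aldh1a2 with no filter on low counts (-0.42, adjusted p = 0.0152). The 95% intervals at E9.5 (from the fitted value and its SE) were -0.83 to 0.08 for Aldh1a2, -0.41 to 0.14 for Rdh10 and -0.05 to 0.67 for Cyp26a1. They hold for this fit: over the alternative settings the estimates reached 0.30 for Aldh1a2, 0.36 for Rdh10 and 0.87 for Cyp26a1, outside these intervals.

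**Figure D4:**
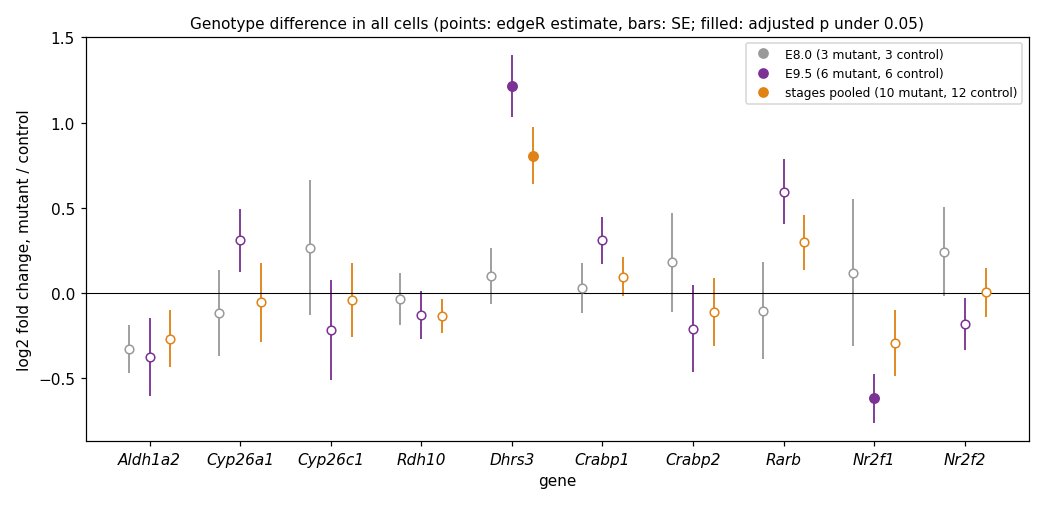
Log2 fold change of mutant over control in all cells for each gene, at all stages pooled, at E8.0 and at E9.5; points are edgeR estimates, bars standard errors and filled points adjusted p under 0.05. Dhrs3 at E9.5 (1.21) and pooled (0.81) and Nr2f1 at E9.5 (-0.62) are filled.

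The lineages made up different shares of the samples at E9.5, which bears on sums over all cells. Proepicardium-positive cells were 5.72% ± 2.09 of mutant and 2.66% ± 1.05 of control samples (SD, n = 6 and 5 samples of at least 20 cells). Cranial cells, low in Dhrs3, were 2.64% ± 1.51 and 5.85% ± 1.39, and paraxial cells, high in Nr2f1, 6.38% ± 3.08 and 9.81% ± 4.97. Endothelial cells, highest in Dhrs3, were 2.12% ± 1.29 and 2.64% ± 0.445. The part of these shares in the differences over all cells was not tested directly; the values within lineages follow.

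Within lineages the Dhrs3 difference was above 0 in 7 of 7, from 0.54 ± 0.43 in endothelium to 1.33 ± 0.41 in proepicardium, with the stages pooled. It was called in cardiomyocytes (1.07 ± 0.22, adjusted p = 0.013), where 1.38% of all genes were called, and in paraxial mesoderm (0.93 ± 0.19, adjusted p = 0.00824), where 6.14% were. In E9.5 cardiomyocytes the 5 controls had 6.83 to 16.5 CPM (mean 10.9 ± 4.36) and the 5 mutants 16.4 to 34.5 CPM (mean 25.3 ± 6.47), with the lowest mutant just under the highest control. In E9.5 paraxial cells the 4 controls had 10.0 to 23.1 CPM and the mutants 8.70, 21.7, 27.2 and 31.1 CPM, the lowest from 2 UMIs, and the groups overlapped. In pharyngeal cells the E9.5 mutants had 13.5 to 25.8 CPM (n = 3) and the controls 2.67 to 7.05 CPM (n = 4), without overlap, yet the fit over the stages did not pass (1.01 ± 0.32, adjusted p = 0.136). Cells without a lineage had 31.4 ± 12.1 CPM in mutants and 14.5 ± 3.71 in controls. The cardiomyocyte call was lost in 4 of 18 leave-one-out fits, without controls Bar3, Bar22 or Bar23 or mutant Bar1 (adjusted p up to 0.0684), and the paraxial call in 1 of 15, without control Bar23 (adjusted p = 0.0505).

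Of the other members, Crabp2 was called lower in proepicardium (-0.84 ± 0.16, adjusted p = 0.045), where 0.508% of genes were called. The controls had 143.1 CPM at E8.5 and 81.5, 98.4 and 110 CPM at E9.5, and the mutants 89.2 CPM at E8.5 and 46.8, 52.2 and 68.4 CPM at E9.5. At each stage every mutant lay below every control, but the call held in only 3 of 8 leave-one-out fits (adjusted p up to 0.25, without control Bar23) and was lost under the stricter marker rule (adjusted p = 0.276). No member was called in endothelium (0.0205% of genes called, 1018 at an unadjusted p under 0.05), blood (0.018%, 867), the pharyngeal group (0.152%, 1717) or cranial mesoderm (2.50%, 1814) with the stages pooled. With E9.5 samples alone, Dhrs3 was called in endothelium (1.88, adjusted p = 0.012), Nr2f1 in blood (-1.36, adjusted p = 0.0368) and Nr2f1 (-0.63, adjusted p = 0.0101) and Crabp1 (0.69, adjusted p = 0.0124) in cranial mesoderm. The pharyngeal values were -1.16 ± 0.23 for Aldh1a2 (adjusted p = 0.0504) and -1.18 ± 0.29 for Nr2f1 (adjusted p = 0.0832). Nr2f1 was below 0 in 7 of 7 lineages, from -0.21 ± 0.18 in paraxial mesoderm to the pharyngeal value. In all, 3 of 56 tested pairs of a member and a lineage were called, 2 higher and 1 lower.

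**Figure D5:**
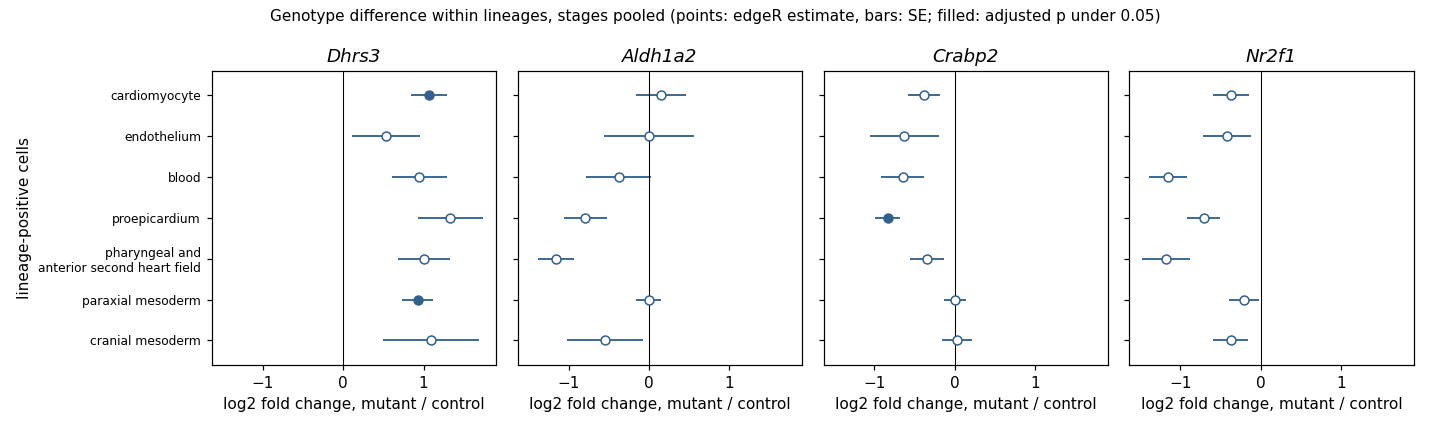
Log2 fold change of mutant over control (x axis) within cells of each lineage (y axis) for Dhrs3, Aldh1a2, Crabp2 and Nr2f1, stages pooled; points are edgeR estimates, bars standard errors and filled points adjusted p under 0.05. Dhrs3 lies right of 0 and Nr2f1 left of 0 in all 7 lineages, and 3 points are filled.

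A list of 41 other genes of the pathway was read in the same fits. At E9.5 6 of 35 tested were higher in mutants and 1 lower, where 10.3% of all genes were called, with a median log2 fold change of 0.19 against 0.02 over all genes. Among the higher ones were Cyp26b1, the third retinoic acid hydroxylase (2.09 ± 0.29, adjusted p = 0.000554), the retinol carrier Rbp4 (2.99 ± 0.89, adjusted p = 0.0461), and, of the 13 retinoic acid induced genes tested, Hoxb1 (0.59 ± 0.15, adjusted p = 0.026), Hoxb4 (0.57 ± 0.16, adjusted p = 0.0338) and Meis2 (0.36 ± 0.11, adjusted p = 0.0498). Cyp26b1 had 11.2 ± 3.60 CPM in the 6 mutants (5.34 to 15.1) and 1.83 ± 1.48 CPM in the 6 controls (0 to 3.80), without overlap. Rbp4 ranged from 7.04 to 285.1 CPM over the mutants and overlapped with the controls. The retinol oxidoreductase Dhrs4 was lower (-0.48 ± 0.12, adjusted p = 0.0189). None of the 5 other receptors (Rara, Rarg, Rxra, Rxrb, Rxrg) or the 4 receptor cofactors tested passed. At E8.0 none of 35 tested passed, where 0.0244% of all genes were called. With stages pooled 3 of 38 were higher (among them Cyp26b1, 1.57 ± 0.29, and Hoxb4, 0.40 ± 0.13) and Dhrs4 was lower (-0.28 ± 0.09). There 10.2% of all genes were called, a share near that of the list. Within paraxial mesoderm, where 6.14% of all genes were called, Hoxb1 (0.76 ± 0.16), Hoxb4 (0.53 ± 0.15) and Meis2 (0.25 ± 0.06) were higher in mutants beside Dhrs3. The number of list genes tested in paraxial cells is not given.

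From E8.0 to E9.5, 13 of 38 other pathway genes tested were higher and 2 lower in all cells, where 19.5% of all genes were called, with a median of 0.18. Of 14 retinoic acid induced genes 8 rose, among them Hoxa4 (2.43 ± 0.27), Tgm2 (1.75 ± 0.24) and Hoxa5 (1.32 ± 0.25), and Cdx1 fell by 1.42 (SE 0.25). Cyp26b1 rose by 2.60 ± 0.36 with the genotypes pooled, and its means went from 0.907 to 1.83 CPM in controls and from 0.989 to 11.2 CPM in mutants. The oxidising enzymes Adh1 (3.01 ± 0.48) and Aldh1a1 (2.17 ± 0.65) rose, with group means under 1 CPM at both stages. Fgf8, which is also one of the pharyngeal markers used here, fell by 1.13 (SE 0.21).

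Over 29 sums of control cells, 1 per lineage and stage, the genes with the most similar pattern to each member were listed from 10405 genes by Pearson r of log2(CPM + 1). The sums of a stage share their libraries, so r is a description with no p. Aldh1a2 was most like Gli1 (0.86), Stra6, the retinol importer (0.82), and Ptch1 (0.82). Cyp26c1 was most like Foxl2 (0.86), which is a cranial marker used to choose the cells. Crabp1 was most like Irx3 (0.87), Crabp2 like Mapk8ip1 (0.93) and Nr2f2 like Gm1673 (0.93). Nr2f1 was most like its antisense partner A830082K12Rik (0.98), which has its own row in the matrix. Whether overlapping reads were counted to the right gene of this pair is not known. Rarb was most like H3f3a (0.85), Dhrs3 like Rasgrp3 (0.76), Rdh10 like Smoc1 (0.75) and Cyp26a1 like Nudt14 (0.74). Among the members the highest r was that of Nr2f1 and Nr2f2 (0.83) and the lowest that of Cyp26c1 and Dhrs3 (-0.45).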

How the data were processed

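Tagged cells were sorted and sequenced with 10x 3′ chemistry (version 3), per the labels. The authors deposited 1 matrix of raw UMI counts and a per-cell table with run, index, stage and genotype. Per the labels' sample descriptions, reads were mapped with kallisto and bustools and indices assigned with the authors' code; the submitters' processing notes name Cell Ranger, bustools 0.46.1 and GRCm38. Doublet removal beyond the index assignment is not given in the sources used here, and no doublet caller was run. Counts were summed per barcode sample (unit of all tests) and within lineage-positive cells, and compared by the quasi-likelihood F test of edgeR (version 4.0.16, R 4.3.3) after its default expression filter and TMM scaling, with Benjamini-Hochberg adjustment over all genes tested and a threshold of 0.05. Models held stage and run for genotype, genotype for stage, and the sample as a block for lineage against other cells. A marker was raised at 2 times or more its mean CPM over all cells; fits needed 20 lineage-positive cells per sample. Shares used cells thinned to 5000 UMIs and a sign-flip permutation test with 100000 resamples over samples (numpy 2.4.6, scipy 1.17.1). DESeq2 1.42.0, limma 3.58.1 on log2(mean CPM per cell + 1), other filters, covariates, marker rules and leave-one-out fits were alternatives. The edgeR fits by genotype, by stage and of their interaction were first run on simulated counts, for all cells or paraxial cells. The fits of a lineage against other cells, the permutation test, DESeq2 and limma were not run on them. The outcome of the simulation is not given here.

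The members and lists were chosen with earlier results of these data known. The lineage scoring rule was chosen after looking at the files, and the fits of runs 2 and 3 alone, the shares without blood-positive cells and the leave-one-out of the Cyp26a1 share were added after seeing the data. Named genes were the 10 members, other pathway genes past the threshold in the comparison described, and the 5 genes most alike per member (the first is printed, up to 3 for Aldh1a2); list genes that did not pass are named as members of their list. Some genes of the lists are counted but not reported here by name. The E7.5 sample entered the fits over all stages.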

Additional observations from a re-analysis of the deposited data

Results flagged for a closer look

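In groups of 4 to 10 samples, 20 sets of member values were searched for a sample far from the others. The sets share samples and are not independent, so their count is not set against a chance rate. Such a sample was found in 2 of the sets. Both came from the E9.5 control Bar6, which holds 6 cells. Its Crabp2 level was 542.9 CPM (73 UMIs) and the next control had 182.8 CPM, a gap of 0.785 of the range. Its Rarb level was 14.87 CPM (2 UMIs) and the next control had 3.475 CPM, a gap of 0.837 of the range.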

How the results depend on the processing

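Counts of called members at E9.5 between genotypes (2 of 10) went to 1 with limma and 0 in runs 2 and 3 alone, and from 1 to 3 over the fits that left out 1 sample. The stage-by-genotype test (0) gave 1 with DESeq2, 2 with no filter on low counts, 1 with the share of Y-positive cells as covariate, 1 in run 1 alone, and 0 to 1 over leave-one-out fits. The stage comparison (6) gave 3 with limma and 4 to 7 over leave-one-out fits. In the order given, the fits described above called 10.3%, 0.464% and 19.5% of all genes in these comparisons. That share is not given here for the alternative and leave-one-out fits, so changes in the member counts are not set against it. A change in a member count can therefore go with a change over all genes. The genotype comparison within lineages called 3 of 56 pairs tested, with 1.57% of all genes called over the lineages. It gave 5 of 41 with DESeq2 (1.71%), 15 of 70 with no filter (1.75%) and 8 of 51 with E9.5 samples only (4.82%). Over leave-one-out fits it gave 0 to 5, but these were run only in cardiomyocytes, proepicardium and paraxial mesoderm, which held the 3 calls. The cause of these changes was not tested. The 8 with E9.5 samples only were Dhrs3 in cardiomyocytes (1.58), endothelium (1.88) and paraxial mesoderm (1.11), Nr2f1 in blood (-1.36) and cranial mesoderm (-0.63), Crabp1 in cranial mesoderm (0.69), Nr2f2 in cardiomyocytes (-0.87) and Rdh10 in paraxial mesoderm (0.65). The stage comparison within lineages (25 of 53 pairs tested) gave 16 to 28 over leave-one-out fits. The share of all genes called is not given for the leave-one-out fits within lineages either. The Cyp26a1 share difference was -1.874 to -1.436 without 1 sample and +0.153 without thinning. Among single values, the difference of Crabp1 from other cells reversed with E8.0 samples only in splanchnic (0.0959) and paraxial cells (0.6274), and that of Cyp26a1 in endothelium with E9.5 samples only (-0.1336). Other single values kept their side of the threshold in 572 alternatives and 1011 leave-one-out fits, lost the call in 35 and 65, and gained it in 17 and 10. Those that kept it include 73 changes of sign between values that both missed the threshold (at most 1.07 on the log2 scale). Pairs of a member and a lineage entered this tally only where the fit given above called them. Such pairs could lose a call in the tally but not gain one. No paired analysis was possible because the index numbers of the barcode samples name samples and do not pair controls with mutants. Depth limits Cyp26c1 (423 UMIs) and Rarb (1146 UMIs), which were tested in 1 and 2 lineages between genotypes.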
